A study of Homo sapiens with 20 samples.

Results

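The suppressors of cytokine signalling are a family of 8 genes, SOCS1 to SOCS7 and CISH. The m6A peaks of these 8 genes were described in human bladder cancer cells. N6-methyladenosine (m6A) is the most common internal modification of mRNA, and methylated RNA immunoprecipitation sequencing (MeRIP-seq) maps it by pulling down RNA fragments with an antibody against it. A peak was counted for a gene when its summit, the position of highest enrichment, lay in an exon of that gene. All 8 genes had at least 1 such peak, where 10235 of 20020 protein-coding genes (51.1%) did. Together the 8 genes held 115 of the 231465 peaks in the 10 lists. These 115 peaks fell into 14 of the 43676 merged regions, a region being a stretch of the genome covered by overlapping peaks of any library.

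The study compared T24, a cisplatin-sensitive bladder cancer line, with T24R2, a resistant line that was derived from T24 by serial exposure to cisplatin and kept in medium with the drug. Each line had 5 pull-down libraries made with the anti-m6A antibody and 5 input libraries made without antibody, 20 samples in all. Both lines carry the genotype label WT and the time label day 3, and the growth protocol in the labels names the same medium for both. T24R2 stands for 1 derived line, so the comparison is between these cell lines and not between resistant and sensitive tumours in general. Peaks were called for each pull-down library against input, and the lists held 17203 to 22901 peaks in T24 and 22671 to 33120 in T24R2. The lists hold no read counts, so depth is unknown, and a missing peak cannot be told apart from a transcript present at too low a level. Among 15 urothelial and epithelial marker genes, 5 held an exonic region (KRT7, KRT18, UPK1A, GATA3 and PPARG), and KRT5, KRT8, KRT19, KRT20, UPK1B, UPK2, UPK3A, TP63, EPCAM and CDH1 held none. Over all protein-coding genes, 51.1% held an exonic summit in any library. A GATA3 region had a peak in all 5 T24 libraries and in 0 of the T24R2 libraries (Fisher's exact p = 0.00794, Benjamini-Hochberg adjusted p = 0.195). A KRT7 region had one in all 10 libraries. The KRT18 region was called in 2 T24R2 libraries, the UPK1A region in 1 T24 and 2 T24R2 libraries, and each PPARG region in 1 library. Of 6 markers of other cell types, PTPRC, CD3E and DES held no exonic region, while PECAM1, ACTA2 and COL1A1 did, beside the same 51.1%. A PECAM1 region was called in 4 T24 and 5 T24R2 libraries, the ACTA2 region in 2 T24R2 libraries and the COL1A1 region in 1 T24 library.

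SOCS proteins are feedback brakes on cytokine and growth factor signalling. Cytokines activate receptor-bound JAK kinases and STAT transcription factors, STATs switch on SOCS genes, and the SOCS proteins then bind the receptor or kinase through an SH2 domain. A second domain, the SOCS box, recruits elongins and a cullin ubiquitin ligase that marks the bound protein for destruction. SOCS transcripts are short-lived, and m6A on Socs1, Socs3 and Cish mRNA is known to promote their decay in mouse T cells. In most mRNAs m6A lies in long exons and around stop codons, in the consensus DRACH, where D stands for A, G or T, R stands for A or G, and H stands for A, C or T. GGAC is its best known core.

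For the region of each gene on which the results turn, the DRACH nearest the median summit of the strongest peaks is shown with 12 bases on each side, so that its place on the transcript can be seen. For SOCS1 the nearest GGAC is shown too, because DRACH was uncommon around its summits. The sequences are hg38 (GRCh38) read 5′ to 3′ on the strand of the gene, and capitals mark the motif searched. A match describes the letters in a window and does not place a methylated base.
SOCS1 (CDS, chr16:11255393-11255421, minus strand): cgacggcggccaGAACCttcctcctcttc
SOCS1 (5′UTR, GGAC with its A at position 11255517 of chromosome 16, minus strand, spliced across exons 1 and 2): cagcgcacccccGGACgctatggcccac
SOCS2 (CDS, chr12:93574728-93574756, plus strand): actggggaagtaTGACTgttaatgaagcc
SOCS3 (3′UTR, chr17:78358001-78358029, minus strand): ttgatttggtttAAACCtgagctggttgt
CISH (3′UTR, chr3:50607223-50607251, minus strand): cagggtcgggtaGGACCcctactggcagc
SOCS4 (CDS, chr14:55043521-55043549, plus strand): atgggtaagcacAGACTtgtctcagactg
SOCS5 (CDS, chr2:46759438-46759466, plus strand): tagctcctggaaTGACTgaaataagtggg
SOCS6 (CDS, chr18:70325762-70325790, plus strand): gtcccatggttgTGACAagccttacagag
SOCS7 (CDS, chr17:38366363-38366391, plus strand): cctctaccggccTGACTcgagcagctttg
SOCS7 (3′UTR, chr17:38399530-38399558, plus strand): tccagctttgaaGAACCaaattaagctac

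The plot of peaks along the transcripts gives the whole family by library. SOCS2, SOCS3, SOCS4, SOCS5 and SOCS6 each had a region called in all 10 libraries, SOCS1 and CISH had one in 4 T24 and 5 T24R2 libraries, and SOCS7 had no region called in more than 8. Of the 14 regions, 6 were called in all 10 libraries, where 31.5% of the regions with a summit in an exon of a protein-coding gene were. For comparison, 5605 of 20020 protein-coding genes (28.0%) held an exonic region called in all 10 libraries. Regions called in a single library numbered 2 of the 14, beside 20.7% of exonic regions.

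**Figure D1:**
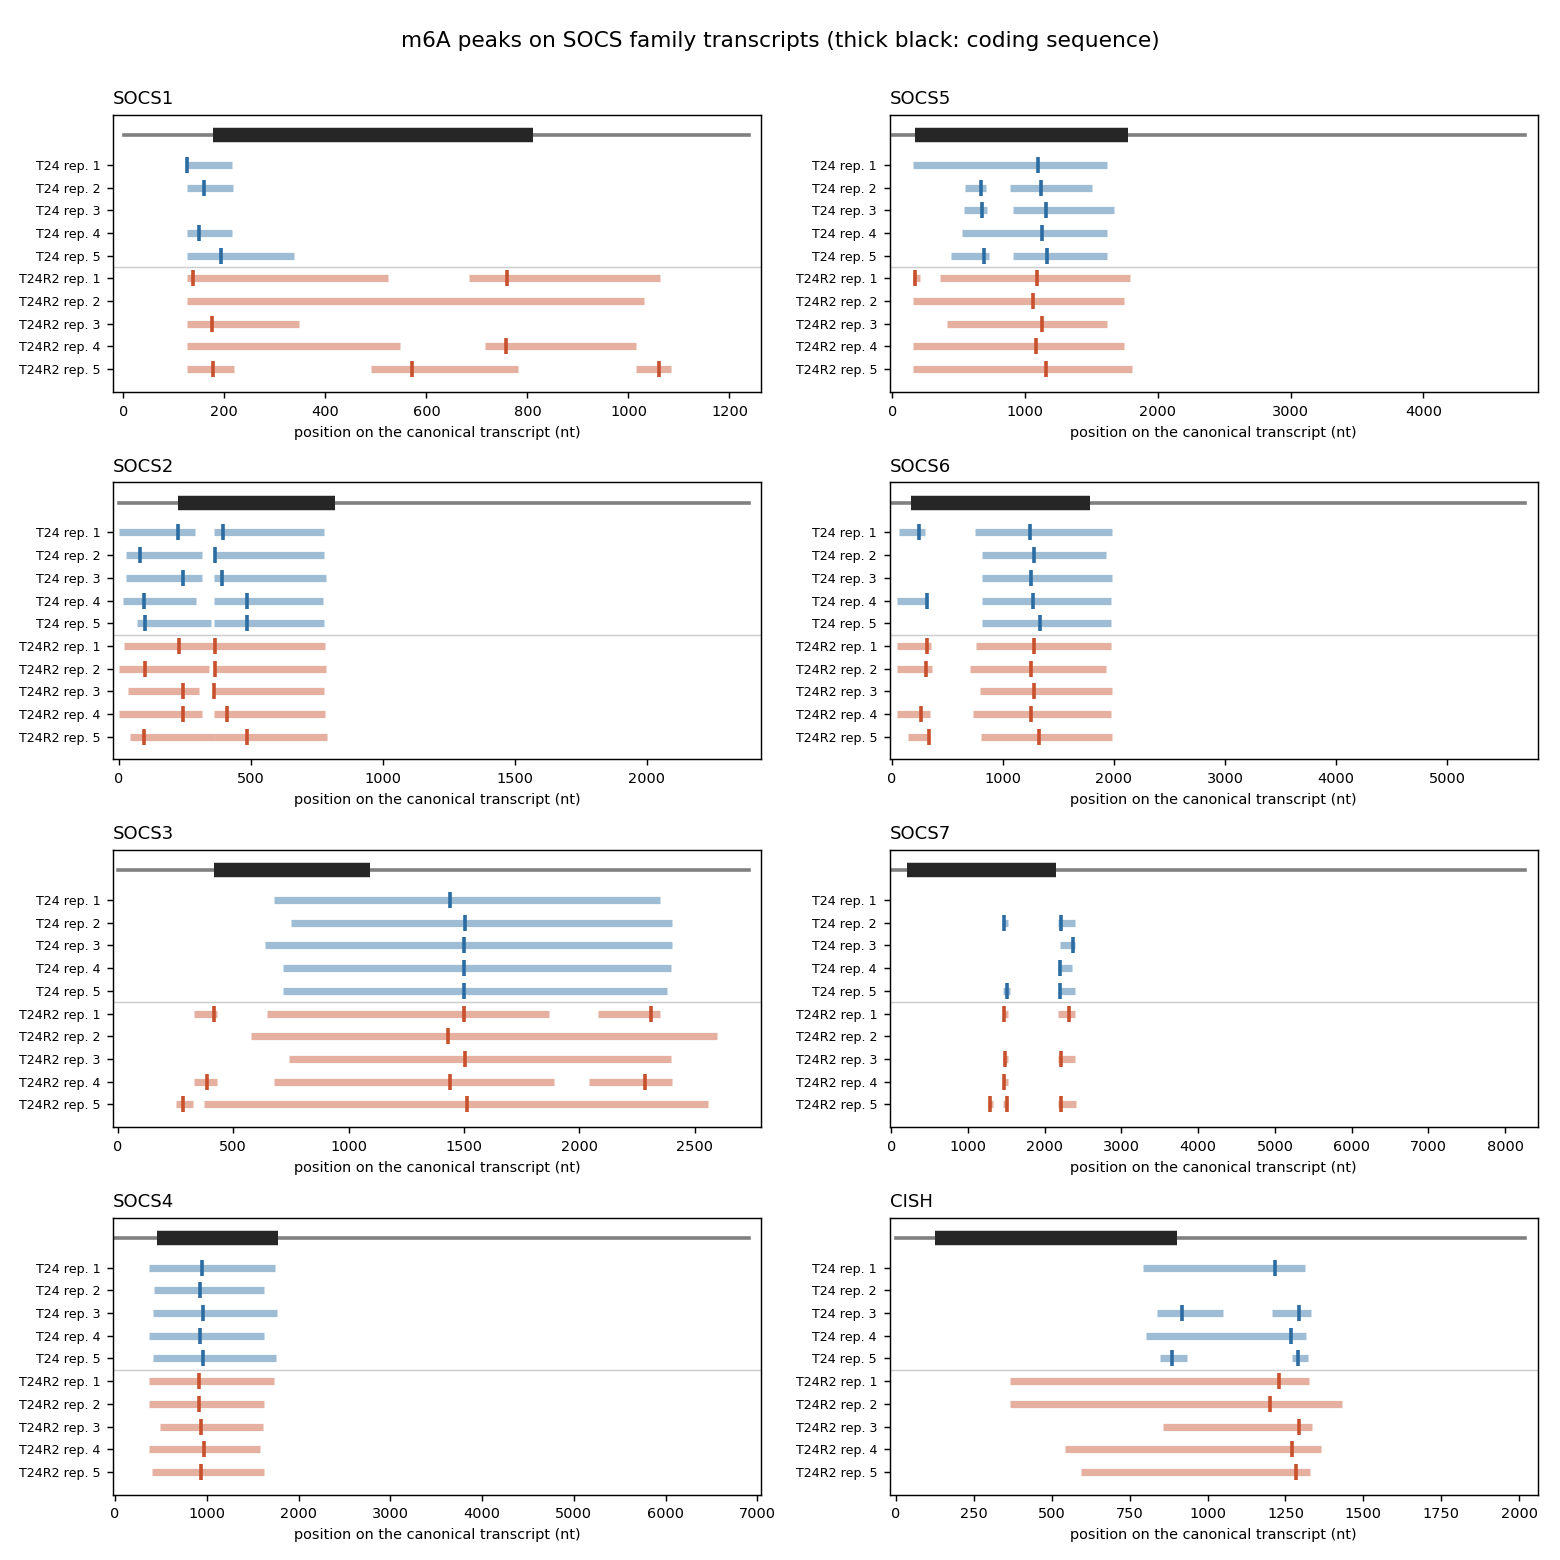
Peaks of the 10 pull-down libraries on the canonical transcript of each gene (x axis, position in nt; y axis, library, T24 in blue and T24R2 in red). Pale bars are the part of a peak that lies on the transcript, ticks are summits, a bar without a tick has its summit outside the canonical exons, and the thick black bar is the coding sequence. In SOCS1 the T24 peaks end by position 338, and all 5 T24R2 libraries reach past it.

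Peaks in the family numbered 10, 10, 10, 10 and 12 in the 5 T24 libraries and 15, 9, 10, 14 and 15 in the 5 T24R2 libraries. The means were 10.4 ± 0.894 and 12.6 ± 2.88 (SD, n = 5 each), a difference of 2.20 peaks with overlapping ranges. The T24R2 lists were longer on average, at 25837 ± 4203 peaks against 20456 ± 2082 (SD, n = 5 each), with replicate 2 of T24R2 within the T24 range. As a percentage of all exonic peaks of a library the family took 0.0657 ± 0.00654% and 0.0668 ± 0.0129% in the same order, so the shares overlapped as well.

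The number of libraries with a peak was compared next. A two-sided Fisher's exact test on each region gave 0 of 14 with an unadjusted p under 0.05 and 0 of 14 after Benjamini-Hochberg adjustment over the 43676 regions. Over all regions, 7.11% were called more often in T24R2 and 2.09% more often in T24 at an unadjusted p under 0.05, and 0 passed after adjustment. The most uneven member was the exon 5 region of SOCS7, with a peak in 2 libraries of T24 and 5 of T24R2 (Fisher's exact p = 0.167). The heat map of the 14 regions shows this beside the rank of each peak.

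**Figure D2:**
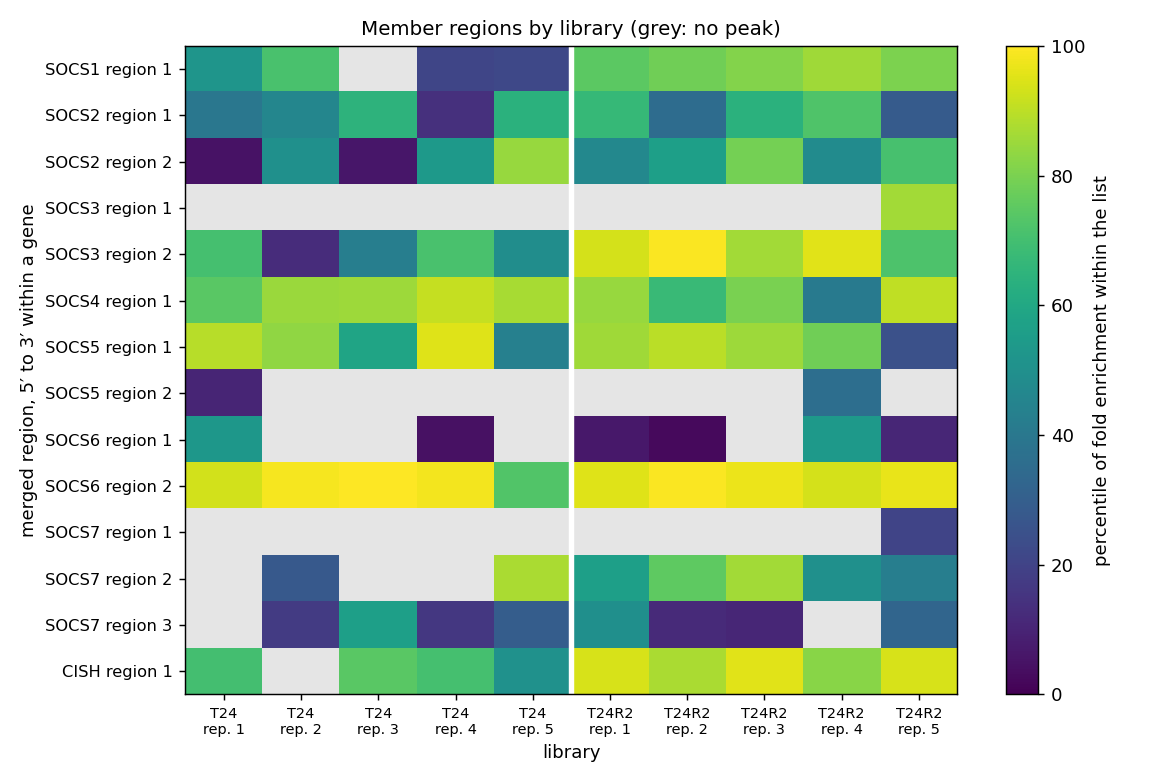
Rank of the strongest peak of each library (columns) in each of the 14 member regions (rows, numbered 5′ to 3′ within a gene), as the percentile of its fold enrichment among all peaks of that library, from 0 for the weakest to 100 for the strongest. Grey cells have no peak, and the white line separates T24 from T24R2. SOCS6 region 2 lies between 72.7 and 99.97 in every library, and SOCS6 region 1, SOCS5 region 2 and SOCS7 region 3 lack a peak in at least 1 library of each line.

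The strength of a peak was compared by its percentile, the share of peaks in the same list with a lower fold enrichment of pull-down over input. The means of the 5 T24 and 5 T24R2 libraries were compared by an exact permutation test (two-sided) for each of the 9577 regions called in all 10 lists, whose smallest possible p is 0.00794. Of the 6 member regions tested, 1 was higher in T24R2 at an unadjusted p under 0.05 and 0 were lower, beside 10.9% and 3.04% of all regions tested. None of the 6 passed after adjustment by this test, and 0 of the 9577 did. The median difference, T24R2 minus T24, was 5.87 percentile points over the 6 regions and 4.84 over all 9577. The 1 region was in SOCS3.

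**Figure D3:**
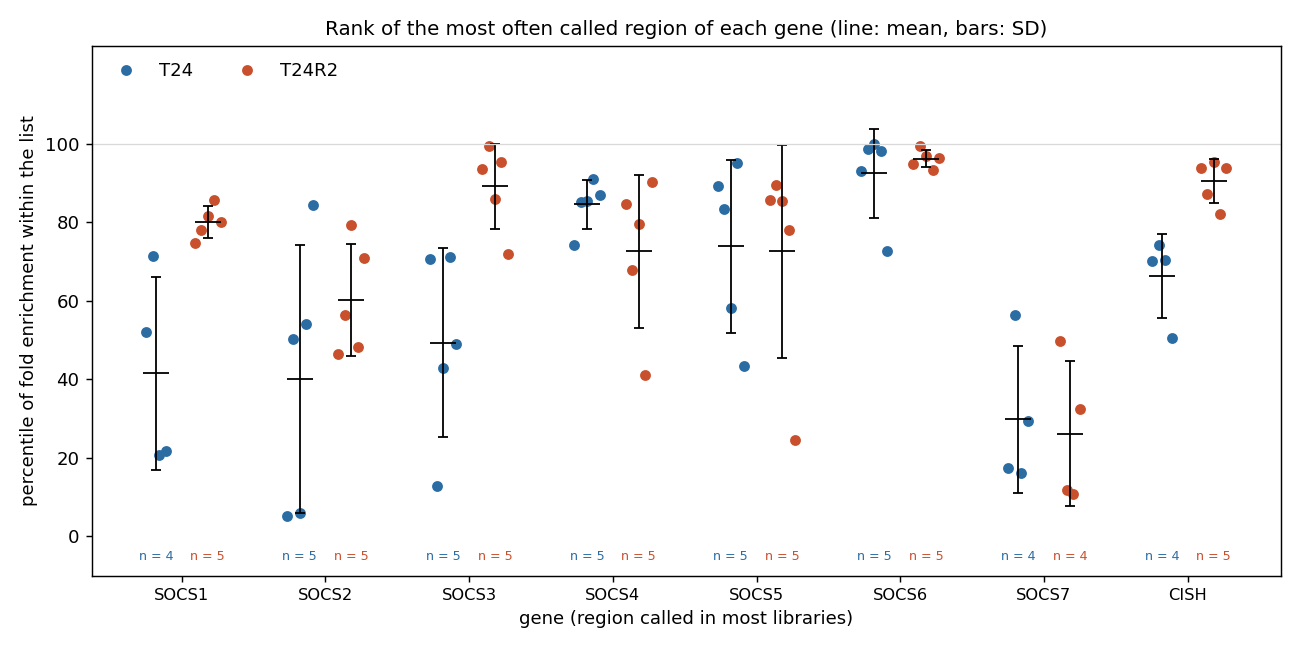
Percentile of fold enrichment in the most often called region of each gene (y axis, 0 to 100), 1 point per library, T24 in blue and T24R2 in red. Horizontal lines are means, bars are SD, and n is the number of libraries with a peak. The colours do not overlap in SOCS1, SOCS3 and CISH, and overlap in the other genes. A library without a peak has no point. Over all regions, T24R2 lay wholly above T24 in 3.63% of the 9577 called in all 10 libraries. With missing libraries at percentile 0, it did so in 11.4% of the 20013 called in 5 or more.

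SOCS3 is induced by IL-6 family cytokines and blocks JAK kinases at the shared receptor chain gp130. Its main region (chr17:78356914-78359212) covered most of the last exon, and the strongest peak of every library had its summit in the 3′UTR, between 336 and 419 nt past the stop codon. The percentile was 70.7, 12.7, 42.9, 71.2 and 49.1 in T24 replicates 1 to 5. In T24R2 replicates 1 to 5 it was 93.5, 99.5, 86.0, 95.5 and 72.0. Every T24R2 library ranked above every T24 library, though the lowest T24R2 and the highest T24 library were close, at 72.0 and 71.2. The means were 49.3 ± 24.1 and 89.3 ± 10.8 (SD, n = 5 each), a difference of 39.96 points (exact permutation p = 0.00794, Benjamini-Hochberg adjusted p = 0.176). Lines that did not overlap in this direction were found in 3.63% of the 9577 regions, and in the other direction in 0.867%.

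The fold enrichments of the SOCS3 peaks overlapped slightly, with a range of 4.09 to 9.70 in T24 and 9.06 to 28.0 in T24R2. Their −log10 q values overlapped more, at 13.8 to 47.3 and 24.6 to 84.3. Ranked by −log10 q instead of fold enrichment, the region differed by 8.97 points (exact permutation p = 0.0714, adjusted p = 0.295). With the mean over all peaks of the region in place of the strongest, the difference was 25.6 points (exact permutation p = 0.0952, adjusted p = 0.445). In T24R2 replicates 1 and 4 the region held 3 peaks each, among them a weak one close to the start codon at percentiles 13.7 and 15.4. T24R2 replicate 5 had a separate 5′UTR peak in exon 1 at percentile 86.1, which no other library had.

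SOCS1 is the interferon-induced member and inhibits JAK kinases directly. Its region (chr16:11254570-11255681) ran from the start of exon 2 through the whole coding sequence into the 3′UTR. It held 959 bases of the transcript, and the T24 peaks lay at its 5′ end. The percentile was 52.1, 71.3, 20.8 and 21.8 in T24 replicates 1, 2, 4 and 5, and T24 replicate 3 had no peak. In T24R2 replicates 1 to 5 it was 74.8, 78.1, 81.6, 85.7 and 80.1. The strongest peak of T24R2 replicate 5 had its summit at transcript position 572. Its peak at position 178, near the start codon, ranked at 74.3. All T24R2 libraries lay above all T24 libraries, with means of 80.1 ± 4.05 (SD, n = 5) and 41.5 ± 24.6 (SD, n = 4). The −log10 q values did not overlap either, at 2.92 to 12.4 in T24 and 13.5 to 23.99 in T24R2. How many of all regions do the same in −log10 q was not computed.

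A region with a missing peak did not enter the test above. With the missing library at percentile 0, an alternative chosen after seeing the data and run on the 20013 regions called in 5 or more libraries, SOCS1 differed by 46.9 points (exact permutation p = 0.00794, adjusted p = 0.0533). In that test, 20% of all regions were higher in T24R2 at an unadjusted p under 0.05, 5.99% were lower and 0 passed after adjustment, and in 11.4% the lines did not overlap with T24R2 above. Without T24 replicate 3, where all remaining libraries had the peak, the difference was 38.6 points (exact permutation p = 0.00794, adjusted p = 0.196).

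The extent of the SOCS1 signal differed as well. Peaks covered 165, 133, 151 and 232 bases in the 4 T24 libraries that had one. They covered 848, 1057, 266, 828 and 491 bases in the T24R2 libraries, so every T24R2 library covered more than every T24 library. In T24 the 4 summits lay between transcript positions 127 and 194, around the start codon at position 177. In T24R2 replicates 1, 4 and 5 further peaks had summits in the rest of the coding sequence, and replicate 5 had one in the 3′UTR, 248 nt past the stop codon. Longer cover in T24R2 was common over the series and is given below for regions called in all 10 libraries, which leave out SOCS1. How many of all regions had cover that did not overlap between the lines was not counted.

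CISH, also called CIS, was the first member described and is a target of STAT5 that binds erythropoietin, growth hormone and interleukin-2 receptors. Its region (chr3:50607076-50608213) ended in the 3′UTR, and the median summit was 366 nt past the stop codon. The percentile was 70.1, 74.3, 70.4 and 50.5 in T24 replicates 1, 3, 4 and 5, and T24 replicate 2 had no peak. In T24R2 replicates 1 to 5 it was 93.9, 87.3, 95.3, 82.2 and 93.9. The lines did not overlap, with means of 66.3 ± 10.7 (SD, n = 4) and 90.5 ± 5.61 (SD, n = 5). Fold enrichment was 6.62 to 10.3 in T24 and 11.5 to 15.5 in T24R2, and −log10 q was 7.07 to 14.8 and 17.4 to 26.0, again without overlap. By percentile with missing libraries at 0, the lines did not overlap, with T24R2 above, in 11.4% of 20013 regions. Such a share was not computed for fold enrichment or −log10 q.

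With the missing library at percentile 0, CISH differed by 37.5 points (exact permutation p = 0.00794, adjusted p = 0.0533). Without T24 replicate 2 the difference was 24.2 points (exact permutation p = 0.00794, adjusted p = 0.209). CISH peaks covered 520, 337, 515 and 138 bases in T24 and 962, 1138, 477, 823 and 737 bases in T24R2. In both lines the cover reached back into the coding sequence, and in 4 of the 5 T24R2 libraries it reached further than in any T24 library. Replicate 3 of T24R2, at 477 bases, fell within the T24 range. T24 replicates 3 and 5 each held 2 separate CISH peaks, and every T24R2 library held a single wider one.

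SOCS2 restrains growth hormone signalling. It was the only member with separate regions called in all 10 libraries, 1 in each of its 2 exons. In the exon 1 region (chr12:93572612-93573099) the percentile was 39.6, 46.1, 64.8, 13.7 and 64.1 in T24 and 67.1, 35.5, 64.0, 72.7 and 28.8 in T24R2. The lines overlapped almost fully, at 45.6 ± 21.0 and 53.6 ± 19.97 (SD, n = 5 each, exact permutation p = 0.579, adjusted p = 0.861). Its summits lay in 2 places, in the 5′UTR at positions 82 to 100 in 5 libraries and just past the start codon at positions 226 to 246 in the other 5, with both lines in each place.

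In the exon 2 region of SOCS2 (chr12:93574576-93575147) the median summit was in codon 57 of 199. The percentile was 5.06, 50.4, 6.01, 54.1 and 84.5 in T24 and 46.5, 56.3, 79.3, 48.2 and 70.9 in T24R2. T24 held both the lowest and the highest values, so the lines overlapped, with means of 40.01 ± 34.1 and 60.2 ± 14.4 (SD, n = 5 each, exact permutation p = 0.294, adjusted p = 0.686).

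SOCS4, SOCS5, SOCS6 and SOCS7 are the members less tied to cytokines. SOCS4 and SOCS5 act on the epidermal growth factor receptor, and SOCS6 and SOCS7 bind insulin receptor substrates and receptor tyrosine kinases such as KIT. The coding sequences of SOCS4, SOCS5 and SOCS6 lie wholly within a single long exon of 6538, 4611 and 5657 nt. In all 3 genes every peak on the canonical transcript had its summit in the coding sequence and none in the long 3′UTR.

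SOCS6 had the highest ranked region of the family, with its median summit in codon 369 of 536 (chr18:70325203-70326482). The percentile was 93.2, 98.6, 99.97, 98.1 and 72.7 in T24 and 95.0, 99.4, 97.0, 93.4 and 96.6 in T24R2. T24 replicate 5 was the single library under 93. The lines overlapped at 92.5 ± 11.4 and 96.3 ± 2.25 (SD, n = 5 each, exact permutation p = 0.762, adjusted p = 0.932). A weaker region near the start of the SOCS6 coding sequence (chr18:70324480-70324855) had a peak in 2 libraries of T24 and 4 of T24R2 (Fisher's exact p = 0.524), at percentiles of 52.9 and 4.42 in T24 and 6.29, 2.71, 53.7 and 10.6 in T24R2.

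The SOCS4 region (chr14:55042882-55044346) had its median summit in codon 161. The percentile was 74.2, 85.1, 85.4, 91.2 and 87.1 in T24 and 84.6, 67.8, 79.7, 41.1 and 90.2 in T24R2. SOCS4 had a lower mean in T24R2, 72.7 ± 19.5 against 84.6 ± 6.28 (SD, n = 5 each), and the lines overlapped (exact permutation p = 0.214, adjusted p = 0.612). All 10 SOCS4 summits fell between transcript positions 916 and 964, the tightest placement among the genes with a region in every library.

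In SOCS5 the main region (chr2:46758384-46760165) had its median summit in codon 309 of 537. The percentile was 89.2, 83.4, 58.2, 95.1 and 43.5 in T24 and 85.6, 89.6, 85.4, 78.1 and 24.7 in T24R2. The means were 73.9 ± 22.1 and 72.7 ± 27.1 (SD, n = 5 each, exact permutation p = 0.937, adjusted p = 0.985), and T24R2 replicate 5 lay far under the other T24R2 libraries. Without that library the difference was 10.8 points in favour of T24R2 (exact permutation p = 0.413, adjusted p = 0.791). A SOCS5 region in an exon of another transcript (chr2:46779834-46780132) was called in 1 library of each line.

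The length covered by peaks was compared too. SOCS5 peaks covered 1545, 781, 942, 1094 and 997 bases in T24 and 1552, 1726, 1205, 1693 and 1682 bases in T24R2, a difference of 499.8 bases (exact permutation p = 0.0159, adjusted p = 0.0903). SOCS2 exon 1 peaks covered 280 to 304 bases in T24 and 267 to 406 in T24R2, a difference of 60.6 bases (exact permutation p = 0.0476, adjusted p = 0.1497). These were 2 of the 6 member regions tested, and 30.2% of all 9577 regions covered more bases in T24R2 at an unadjusted p under 0.05, 1.63% covered fewer and 0 passed after adjustment. The SOCS3 cover was similar in both lines, 1687 ± 45.1 and 1834 ± 255.3 bases (SD, n = 5 each, exact permutation p = 0.357, adjusted p = 0.495). This test of cover was also chosen after seeing the data.

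SOCS7 has 10 exons and had a peak in fewer libraries than any other member. A peak by the summit rule was present in 4 T24 and 4 T24R2 libraries. The 3′UTR region (chr17:38399396-38399736), with its median summit 62 nt past the stop codon, was called in 4 libraries of each line at percentiles of 17.4, 56.4, 16.1 and 29.4 in T24 and 49.7, 11.8, 10.8 and 32.5 in T24R2. These ranks were low in both lines and overlapped. The coding region in exon 5 (chr17:38366168-38366373), an exon of 131 nt, was called in T24 replicates 2 and 5 at percentiles of 27.8 and 87.3. In T24R2 it was called in all 5 libraries, at percentiles of 56.5, 75.3, 86.0, 50.3 and 43.0. In T24R2 replicate 2 the peaks of both SOCS7 regions had their summits outside SOCS7 exons. Another region, in exon 3, was called in T24R2 replicate 5 only.

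The place of the peaks on the transcript differed from gene to gene. Of the 111 family summits on canonical transcripts, 11.7% were in the 5′UTR, 61.3% in the coding sequence and 27.0% in the 3′UTR. The shares over 133809 summits in protein-coding genes were 7.20%, 61.3% and 31.5%. SOCS4, SOCS5 and SOCS6 had summits in the coding sequence alone, SOCS3 had 12 of 15 in the 3′UTR, and CISH had 10 of 11 there. SOCS1 had 5 of 11 in the 5′UTR. Summits within 400 nt of the stop codon made up 25.2% of the family and 35.7% of all, and summits in the last exon 83.8% and 54.7%. The median exon holding a summit was 2406 nt in the family and 1530 nt over all genes. These shares carry no test, since peaks of 1 gene are not independent.

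**Figure D4:**
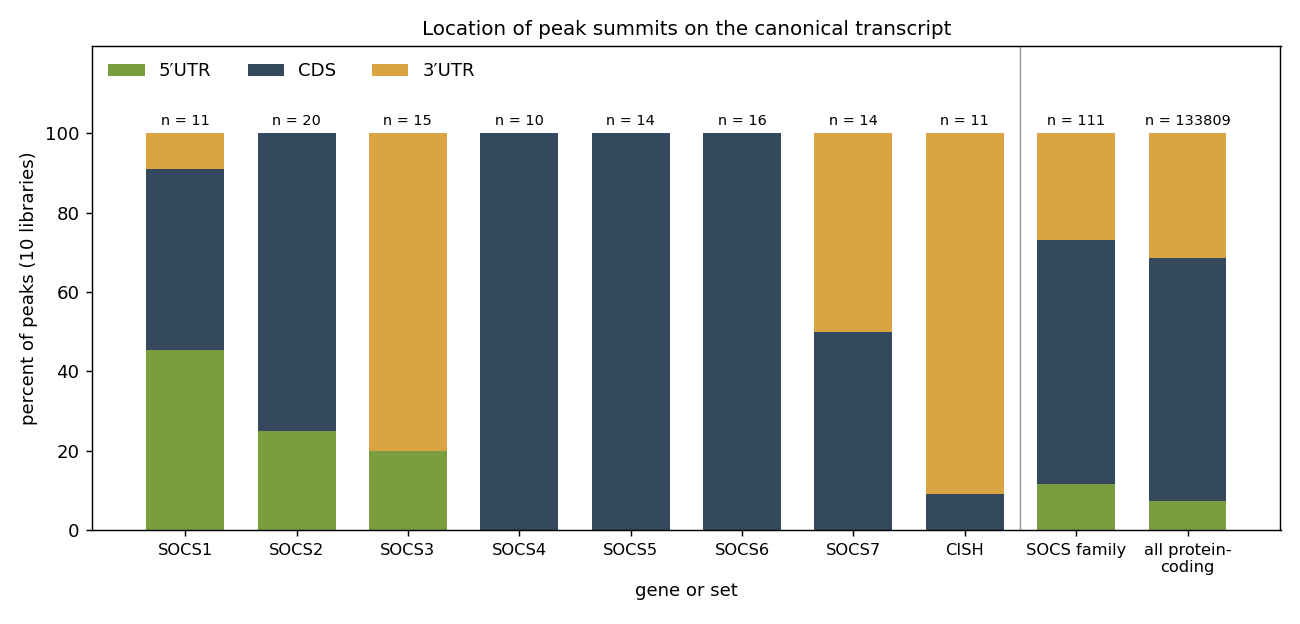
Percent of peak summits in the 5′UTR, coding sequence (CDS) and 3′UTR of the canonical transcript (y axis, 0 to 100%), summed over the 10 libraries, for each gene, the family and all protein-coding genes. n is the number of peaks. SOCS4, SOCS5 and SOCS6 bars are wholly CDS, and SOCS3 and CISH bars are mostly 3′UTR.

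In genomic windows, which run on into introns where a summit lies near an exon's end, DRACH was found on the gene's strand within 50 nt of 103 of the 115 family summits (89.6%), and within the same distance of 90.5% of 165758 exonic summits. On the opposite strand of these windows, which serves as background, the shares were 80.0% and 71.6%. GGAC was found near 47.8% of family and 47.9% of all summits, and on the opposite strand near 22.6% and 24.4%. GGAC overlaps DRACH wherever the next base is A, C or T.

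By gene, DRACH was near every summit of SOCS2, SOCS4, SOCS5, SOCS6 and CISH, near 13 of 15 in SOCS3 and near 13 of 14 in SOCS7, intronic bases included. SOCS1 stood apart, with DRACH near 4 of 13 summits on its own strand and near 10 of 13 on the opposite strand. GGAC was near 10 of the 13 SOCS1 summits. In the sequences shown above, the SOCS1 GGAC has its A at transcript position 138 and is followed by a G, which DRACH does not allow, and the nearest DRACH has its A at position 248. The median summit of the strongest SOCS1 peaks was at position 160. In SOCS2 exon 2, SOCS3, CISH, SOCS4, SOCS5, SOCS6 and the SOCS7 3′UTR the A of the DRACH shown lay within 11 nt of the median summit. In the exon 5 region of SOCS7 the 87 transcript bases held no DRACH, and the nearest one on the spliced transcript lay 72 nt downstream of the median summit.

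The other genes of the pathway were taken from lists of JAK kinases, STATs, receptors, ligands, other brakes, subunits of the SOCS box ligase and other SOCS box proteins. Of 61 genes, 45 held an exonic region and 24 held one called in all 10 libraries. Over all protein-coding genes the shares were 51.1% and 28.0%. Among their 100 regions, 6 were called more often in T24R2 and 1 more often in T24 at an unadjusted Fisher's exact p under 0.05, and 0 passed after adjustment. These counts stand beside 7.11% and 2.09% over all regions. A PRLR region, in the prolactin receptor, and a PIAS1 region, in a SUMO ligase, were each called in 0 libraries of T24 and 5 of T24R2 (Fisher's exact p = 0.00794, adjusted p = 0.195). Regions of PIAS2, PIAS4, SPSB4 and the cullin gene CUL2 were each called in 0 libraries of T24 and 4 of T24R2 (Fisher's exact p = 0.0476, adjusted p = 0.517). An ASB1 region went the other way, with 5 libraries of T24 and 1 of T24R2 (Fisher's exact p = 0.0476, adjusted p = 0.517).

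By percentile, 34 pathway regions were tested, of which 2 were higher and 2 lower in T24R2 at an unadjusted exact permutation p under 0.05, and 0 passed after adjustment. Over all 9577 regions 10.9% were higher and 3.04% lower. The median difference was 4.21 points, beside 4.84 over all regions tested. None of the 4 JAK kinase genes held a region called in all 10 libraries, and JAK3 held no exonic region. STAT4, STAT5A and STAT5B held no exonic region either, and 1 STAT region was called in all 10 libraries. Receptors had 9 such regions, ligands 3, other brakes 8 and other SOCS box proteins 13, while the ligase subunits had none.

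The regions whose percentile over the 10 libraries was most like that of SOCS3 were looked up among 7976 exonic regions called in every library. The closest were in ZNF74, ITGB3BP and PCLO, with Pearson r of 0.943, 0.943 and 0.941. All 3 had higher mean percentiles in T24R2, at 91.0, 88.4 and 92.1 against 68.5, 46.9 and 55.9 in T24. That direction comes with the choice: SOCS3 was the member with the largest difference, and these regions were picked for likeness to it. The values are descriptions over 10 libraries of 2 lines, which share the list of each library.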

How the data were processed

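MeRIP-seq pull-down libraries of T24 and T24R2 (5 each) were analysed, grouped by their titles. Per the study's methods and the submitters' processing notes, reads were aligned to hg38 with STAR 2.7.0, filtered to unique reads without duplicates with SAMtools 1.10, and peaks were called per library over input with MACS2 3.0.0a6 without model building. The authors deposited for each peak a fold enrichment (a ratio of pull-down to input), a −log10 p-value, a −log10 q-value (lowest 2.00) and a score derived from it. The authors' merged list gave the 43676 regions. Because the files are peak lists without read counts, depth is unknown, no interval is given, and the count tests of the study were not run. Fold enrichment is scaled within a library, so it was tested between lines only as a percentile within the list. Ranges of fold enrichment and −log10 q are given for some regions as descriptions without a test. Peaks carry no strand. No other gene's exon lay at a member summit.

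Summits were assigned with GENCODE 44 exons (bedtools 2.31.1) and placed on the canonical transcript. A library had a region when a peak overlapped it. Presence was tested by Fisher's exact test and percentile by an exact permutation test over 252 assignments, in Python 3.11.15 with scipy 1.17.1, each adjusted by Benjamini-Hochberg over all regions. The limma 3.58.1 moderated test was an alternative. Nothing in the labels says that replicates came from separate cultures, so p-values measure the spread between these libraries, which may be technical. The tests were also run on simulated data. Replicate numbers did not pair the libraries: correlations of deviations between same-numbered libraries were 0.00370, -0.0304, 0.0474, -0.0105 and 0.111.

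All 8 members were named, and pathway genes from fixed lists only with an unadjusted presence p under 0.05, at most 10. Members and lists were chosen with earlier results of these data known. Alternatives were thresholds on −log10 q and fold enrichment, the same number of peaks (17203) per library, cover of at least 50% of the region, other measures of rank, other exon rules, motif window and motif, a replicate block, and the removal of each library in turn.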

Additional observations from a re-analysis of the deposited data

Results flagged for a closer look

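In 5 of 44 groups of libraries 1 value lay far from the others by Dixon's criterion. Its rate of about 1 in 20 groups by chance holds for independent, normally distributed values. These percentiles, lengths and counts share the same libraries, so the 5 of 44 cannot be set against that rate. Where the other counts are equal, any single different count meets the criterion. The SOCS5 main region ranked at percentile 24.7 in T24R2 replicate 5, with the next T24R2 library at 78.1. The SOCS6 main region ranked at 72.7 in T24 replicate 5, with the next at 93.2. The SOCS6 region near the start codon ranked at 53.7 in T24R2 replicate 4, with the next of the 4 libraries at 10.6. SOCS3 peaks covered 1765 bases in T24 replicate 3, with the next at 1683. T24 replicate 5 held 12 family peaks where each other T24 library held 10. Their causes were not tested.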

How the results depend on the processing

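Of 446 values recomputed under alternatives, 424 were recorded as unchanged, 8 tested differences changed direction and 14 counts or shares moved. A tested difference was unchanged if it kept its direction and its side of an adjusted p of 0.05. No member region passed that threshold in the main tests. A difference of 0 could not change direction by this rule, and the number of member regions tested was always recorded as unchanged, though it varied. The 424 is therefore not a measure of stability. Where no test was made, a share was unchanged if it moved by less than the spread between libraries. Within that spread the sign of the difference in the family's percent of exonic peaks did change: it was 0.00103, -0.00101 with canonical exons, and -0.00333 to 0.00392 with 1 library left out (below 0 without T24 replicate 3 or 4 or T24R2 replicate 1 or 4). The count of regions differing in presence at an unadjusted Fisher's exact p under 0.05 went from 0 to 1 with −log10 q of at least 5 (SOCS7 exon 5, p = 0.0476), with −log10 q of at least 10 (SOCS1, p = 0.0476) and with 50% cover (CISH, p = 0.0476), and was 0 to 1 with 1 library left out (SOCS7 exon 5, without T24 replicate 2 or 5). The count by percentile went from 1 to 0 with the percentile of −log10 q and with the mean over peaks, to 3 with missing libraries at percentile 0 (SOCS1, SOCS3 and CISH, exact permutation p = 0.00794, adjusted p = 0.0533) and to 2 with covered bases, and was 1 to 2 with 1 library left out (CISH joined without T24 replicate 2, SOCS1 without T24 replicate 3). With 17203 peaks per library, the SOCS3 difference was 40.4 points (exact permutation p = 0.0317, adjusted p = 0.338). The share in the coding sequence was 66.7% at −log10 q of at least 10, and the share with the motif was 75.7% within 25 nt and 47.8% for GGAC.

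The SOCS5 difference, -1.23 points, changed direction to 13.2 with −log10 q, to 6.01 with the mean over peaks, to 2.60, 1.15 and 4.08 without T24 replicates 1, 2 and 4, to 10.8 without T24R2 replicate 5 (range with 1 library left out -8.84 to 10.8), and to 499.8 for covered bases. The SOCS6 difference was -1.21 without T24 replicate 5 (range -1.21 to 5.61). The causes were not tested.

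With a replicate block in limma, SOCS3 had an adjusted p of 0.201, and without the block limma gave an adjusted p of 0.126. The count of regions at an unadjusted p under 0.05 was 1 in both. Over the alternatives that kept a percentile, the adjusted p of SOCS3 ranged from 0.0533 to 0.445. With covered bases in place of the percentile it was 0.495. A paired test of presence has a smallest p of 0.0625 with 5 pairs. In the pairing check 1 of 5 numbers correlated best with its own number. Depth limits every missing peak: a list without read counts does not say how close a region came to being called.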

Other observations

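Several regions reached past the exons of the canonical transcript. Of the 206 bases of the SOCS7 exon 5 region, 87 lay on the transcript. In SOCS1 it was 959 of 1112 bases and in SOCS2 exon 2 it was 426 of 572, and in both the cover of the transcript began at the first base of exon 2 in every library with a peak. The summits of the strongest SOCS1 peak in T24R2 replicates 2 and 4 lay in an exon of another SOCS1 transcript.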
